A study of Mus musculus with 170 samples.

Results

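Liver progenitors are biliary-type epithelial cells of the liver, and their RNA was compared between old and young mice across all genes. The comparison used 6 of the 170 libraries of an ageing series on 23 sorted cell types, namely the 3 labelled as old and the 3 labelled as young liver progenitors. They were chosen by cell type and age in their labels. Old mice were 22 to 24 months of age and young mice 2 months, and all were labelled as of C57/Bl6 background. No treatment other than age was labelled. Each library pooled cells of 5 healthy animals, isolated from the liver and purified by fluorescence-activated cell sorting. A p-value therefore reflects the spread between pools, and no source used here gives the antibodies or gates of the sort. The comparison asked which genes differed with age in this population.

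Biliary epithelial cells, or cholangiocytes, line the bile ducts, modify bile and form the barrier between bile and liver tissue. The small cells at the ends of the duct tree can divide after liver injury and give rise to biliary cells and, in some injuries, to hepatocytes, and they are therefore called progenitors. Epcam, Krt19, Sox9 and Spp1 mark this lineage. Like other mucosal epithelia, bile duct cells carry immunoglobulin into the lumen, secrete antimicrobial proteins and can present antigen to T cells.

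RNA was sequenced from the 3′ ends of poly(A) transcripts, and the values are counts per gene. Levels are given as CPM, counts relative to library size after TMM scaling, in the order of replicates 1, 2 and 3. The numbers of the replicates are names and have no order. The libraries held between 830091 and 1447013 counts, so that 1 CPM was about 1 count, and 3 counts, the limit that a count of 0 allows, came to 2.17 to 3.72 CPM. Among 55484 genes 9876 passed the filter on low counts and were tested. Epcam, an adhesion protein of epithelia, had 845, 815 and 1005 CPM in old and 819, 1075 and 869.7 CPM in young libraries. Krt19, a keratin of duct cells, had 215, 291 and 292 CPM in old and 378, 344 and 364 CPM in young libraries. Sox9, a transcription factor of duct cells, had 3195, 1843 and 2044 CPM in old and 2307, 3410.5 and 2438 CPM in young libraries, and Spp1, osteopontin, had 22965, 27445 and 28435 CPM in old and 24476, 21759 and 27675 CPM in young libraries. All 4 were high at both ages, and the ages overlapped for all but Krt19, which was lower in each old library. None of these 4 markers passed the test, and Krt19 was the nearest (log2 -0.45 ± 0.15, adjusted p = 0.298). Among the 23 cell types, liver progenitors ranked 1 for Krt19, Sox9 and Spp1 at both ages, and for Epcam 1 in young and 3 in old animals. The label matched these markers at both ages. Xist, the RNA of the inactive X chromosome in females, had 650.4, 559 and 572 CPM in old and 577, 438 and 499.9 CPM in young libraries.

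Of the genes tested 95 passed, 72 higher in old animals and 23 lower, which is 0.962% of all tested, 0.729% and 0.233% (edgeR's quasi-likelihood test, Benjamini-Hochberg adjusted p under 0.05). Risen genes included H2-Aa and Cd74 of antigen presentation, the immunoglobulin transporter Pigr, the plasma protein genes Fga and Fgg, the fatty acid transporter Cd36 and the neutrophil granule genes S100a8 and S100a9. Fallen genes included the imprinted genes Peg3 and Usp29, Dcx, Bex1, Bex4, Wnt4 and Igf1. For 71 of the 72 risen genes and all 23 fallen genes, the old and young libraries did not overlap. Over all genes tested, 7.25% had every old library above every young one and 6.51% every old library below. The change was more than 2-fold for 59 risen and 15 fallen genes. The median log2 fold change over all genes was close to 0 (-0.0014). At an unadjusted p under 0.05 there were 488 higher and 331 lower genes. The count of called genes was 50 without old replicate 3 and 56 without young replicate 1, and 29 with the spread estimated over all 170 libraries of the series. Among named genes, 21 kept the call with that spread, among them Arhgdib, Bex1, C4b, Camp, Cyp2d10, Elane, Fga, Gstm2, H2-Q7, Hamp, Iigp1, Lyz2, Mmp7, Mpo, Ngp, Peg3, S100a8, S100a9 and Snorc.

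**Figure D1:**
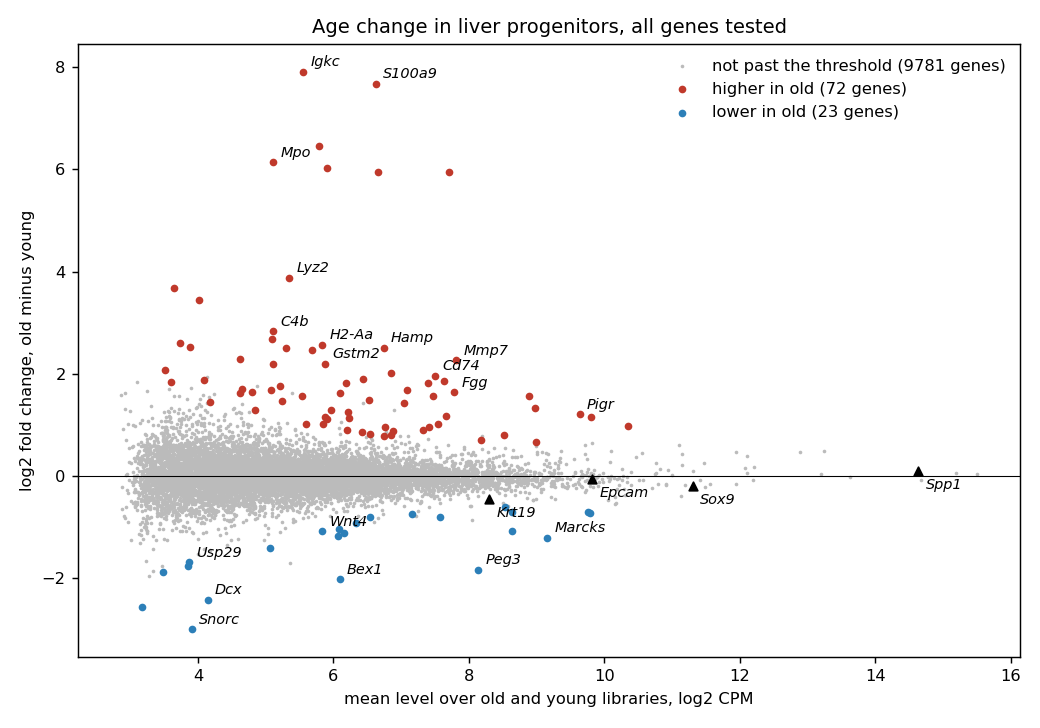
Each point is 1 of 9876 genes, with the mean level over the old and young libraries (log2 CPM) on the x axis and the log2 fold change, old minus young, on the y axis; red points passed the test as higher in old (72), blue as lower (23), grey did not pass, and black triangles are the 4 markers of the lineage. Risen genes reach log2 changes above 5, fallen genes reach about -3, and the triangles lie near 0.

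Several class II antigen presentation genes rose in old liver progenitors. Class II molecules display peptides from the endocytic pathway to CD4 T cells and are made of an alpha and a beta chain, loaded with the help of the invariant chain and the DM proteins. Of 13 listed genes 7 were tested, 5 rose and 0 fell. Of the 5, H2-Eb1 and H2-DMa passed the filter on low counts through the old libraries alone, since fewer than 3 young libraries reached its level of 9.57 CPM. Of the 7 tested, 3 passed it through the old libraries alone and 1 through the young alone. The number of called members is therefore given no weight. H2-Aa, the alpha chain of the I-A molecule (chr17:34282744-34287823), had 84.5, 121 and 87.2 CPM in old and 10.4, 16.7 and 21.0 CPM in young libraries. The lowest old library was 4.03 times the highest young one, and the log2 fold change was 2.57 ± 0.26 (SE, as throughout, adjusted p = 4.04e-05). H2-Ab1, its beta chain (chr17:34257689-34269419), had 186, 244 and 191 CPM in old and 45.7, 59.4 and 86.4 CPM in young libraries (1.68 ± 0.21, adjusted p = 0.000223). H2-Eb1, the beta chain of the I-E molecule (chr17:34305867-34316674), had 59.1, 71.8 and 70.4 CPM against 4.16, 10.9 and 19.3 CPM (2.50 ± 0.33, adjusted p = 0.000446). Old and young libraries did not overlap for either gene, and the young ones were the more uneven.

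The promoters of class II genes are known for a set of boxes shortly before the start, among them the X2 box, which resembles a CRE, and the Y box, a CCAAT box in reverse. The 130 bases before the start of H2-Aa and H2-Eb1 are shown, from RefSeq on GRCm38.p6, since these genes rose together and both windows hold such a box. Capitals mark the CCAAT box on either strand (CCAAT or ATTGG) and the CRE (TGACGTCA).
H2-Aa (chr17:34287824-34287953, minus strand): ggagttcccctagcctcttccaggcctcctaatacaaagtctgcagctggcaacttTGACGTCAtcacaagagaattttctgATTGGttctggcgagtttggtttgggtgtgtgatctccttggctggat
H2-Eb1 (chr17:34305737-34305866, plus strand): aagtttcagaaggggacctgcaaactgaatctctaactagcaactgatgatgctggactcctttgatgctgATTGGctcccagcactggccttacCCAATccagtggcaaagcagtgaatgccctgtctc
In H2-Aa the CRE began 74 bases and the CCAAT box 48 bases before the start, and in H2-Eb1 CCAAT boxes, the first in reverse, began 59 and 35 bases before it. A CCAAT box on either strand was held by 4 of the 6 promoters of tested class II genes, and by 37.2% of the 9660 promoters of all genes tested, in windows from 250 bases before to 50 after the start. A CRE was held by 1 of the 6 and by 3.20% of all.

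Cd74, the invariant chain that guards the peptide groove (chr18:60803848-60812652), had 239, 357 and 274 CPM in old and 39.5, 65.2 and 116 CPM in young libraries (log2 1.96 ± 0.27, adjusted p = 0.000576). H2-DMa, a subunit of the peptide exchange factor DM (chr17:34119541-34139101), had 15.0, 38.4 and 22.4 CPM in old and 2.08, 3.62 and 6.71 CPM in young libraries (2.52 ± 0.47, adjusted p = 0.0110). Neither gene overlapped between the ages. H2-DMa lost the call without old replicates 2 or 3 or young replicates 1 or 2 (adjusted p up to 0.102). Of the 2 tested members that did not pass, H2-DMb1, the other DM subunit, had 26.3, 27.3 and 23.5 CPM in old and 5.20, 10.9 and 11.7 CPM in young libraries (log2 1.42 ± 0.34, adjusted p = 0.0678), and Ifi30, a reductase of the endocytic pathway, had 7.51, 9.91 and 8.94 CPM in old and 10.4, 12.3 and 19.3 CPM in young libraries (-0.69 ± 0.39, adjusted p = 0.716). Ciita, the master regulator of class II transcription, was too low to be tested, at 3.75, 16.1 and 0 CPM in old and 2.08, 8.69 and 6.71 CPM in young libraries, which overlapped. With the spread of all 170 libraries 0 of the class II genes were called.

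Class II genes are high in B cells, dendritic cells and macrophages, so markers of these cells are given beside them. The summed level of 11 B cell markers was 4.95 to 10.3 CPM in old and 3.62 to 5.87 CPM in young libraries, and Ms4a1 and Blk were at 0 in all 6. The summed level of 11 dendritic cell markers was 10.3 to 14.5 CPM in old and 4.19 to 11.6 CPM in young libraries, with Itgax, Clec9a and Ccr7 at 0 in all 6. That of 17 Kupffer cell and macrophage markers was 196 to 372 CPM in old and 200.5 to 249 CPM in young libraries, of which Csf1r made up 135 to 229 CPM. The summed class II list, at 622 to 892 CPM in old and 119.5 to 293.5 CPM in young libraries, did not overlap between the ages, while the B cell, dendritic cell and macrophage sums did. The macrophage sums overlapped through Csf1r, whose highest value was in a young library. Apart from Csf1r, the macrophage markers summed higher in each old library than in any young one. Lyz2, one of them, had 31.9, 17.3 and 180 CPM in old and 1.04, 2.90 and 10.9 CPM in young libraries. The ratio of the group means was 3.64 for class II, and its exact two-sided permutation p of 0.1 is the smallest that 3 against 3 libraries allow. In sorted bulk samples, more cells of a type and more RNA per cell cannot be told apart.

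Igkc, the constant region of the kappa light chain (chr6:70726435-70726966), is named after its values were seen. It had 236, 31.0 and 14.5 CPM in old and 1.04, 0 and 0 CPM in young libraries, highest in old replicate 1. The young libraries together held 1 count and the old ones 289, a ratio of 369 per scaled library size with an exact 95% interval from 65.7 to 14618, which covers counting error only. Jchain, a plasma cell gene, had 16.0, 2.48 and 0 CPM in old and 1.04, 0 and 0 CPM in young libraries, and was likewise highest in old replicate 1. The summed level of 10 plasma cell markers was 309.7 to 354 CPM in old and 269 to 313 CPM in young libraries, which overlapped. Young libraries held at most 1.04 CPM of Igkc and of Jchain, so most of that sum came from other genes. Its overlap therefore does not show that plasma cell RNA was alike at both ages. The part of plasma cell RNA in the other results was not tested.

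Pigr, the receptor that carries IgA and IgM across epithelia into bile and gut (chr1:130826684-130852249), had 1099.9, 1058 and 1169.5 CPM in old and 516, 416 and 512 CPM in young libraries. Its old libraries lay close together, all above the young ones, and the log2 fold change was 1.20 ± 0.14 (adjusted p = 0.000166). Liver progenitors ranked 1 of 23 cell types for Pigr at both ages. Lcn2, which binds bacterial iron carriers (chr2:32384633-32388252), had 224, 240.3 and 376 CPM in old and 105, 130.4 and 137 CPM in young libraries (log2 1.17 ± 0.19, adjusted p = 0.00379). It lost the call without young replicate 1 (adjusted p 0.0523). Sftpd, a collectin that binds microbial sugars, and Tspan8, a tetraspanin of epithelia, are named after their values were seen. Sftpd had 484, 871 and 799 CPM in old and 301, 274 and 278 CPM in young libraries, and Tspan8 had 1125, 1135 and 1451 CPM in old and 495, 468 and 710.4 CPM in young libraries. Neither overlapped between the ages.

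Mmp7, matrilysin, a protease of duct and gland epithelia that processes defensins and matrix (chr9:7692090-7699585), had 292, 282 and 544 CPM in old and 85.2, 79.7 and 67.9 CPM in young libraries. The lowest old library was 3.31 times the highest young one, with old replicate 3 the highest, and the log2 fold change was 2.27 ± 0.23 (adjusted p = 4.04e-05). It was the 1 called gene among 26 tested extracellular matrix genes, whose median log2 change was -0.028. Il1rn, the antagonist of the interleukin 1 receptor (chr2:24336853-24351494), had 46.0, 61.9 and 64.8 CPM in old and 10.4, 15.2 and 24.3 CPM in young libraries (log2 1.76 ± 0.29, adjusted p = 0.00352). Il34, a ligand of the receptor encoded by Csf1r (chr8:110741829-110805924), had 10.3, 17.3 and 28.0 CPM in old and 4.16, 4.35 and 4.19 CPM in young libraries (log2 2.08 ± 0.46, adjusted p = 0.0356). These were the 2 called members among 12 tested chemokines and secreted inflammatory factors. Of the 12, 3 passed the filter on low counts through the old libraries alone, Il34 among them, and 1 through the young alone. The number of called members is therefore given no weight. Il34 lost the call without old replicates 2 or 3 or young replicates 1, 2 or 3 (adjusted p up to 0.363), and with DESeq2 (0.0570). Csf1r itself had 174, 139 and 135 CPM in old and 229, 182 and 171 CPM in young libraries, which overlapped (log2 -0.37 ± 0.17, adjusted p = 0.556).

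Interferon-responsive genes were mostly higher in old libraries, and few of them passed. Interferons act through receptors on the cell surface, and the genes they induce include guanosine triphosphatases that attack intracellular parasites. Of 52 listed genes 37 were tested, 4 rose, 0 fell and 34 had a log2 fold change above 0, with a median of 0.69. Of the 37, 7 passed the filter on low counts through the old libraries alone, and the 4 risen genes were not among them. Iigp1, an interferon-induced GTPase (chr18:60376027-60392634), had 132, 295 and 368 CPM in old and 89.4, 78.2 and 101 CPM in young libraries (log2 1.56 ± 0.27, adjusted p = 0.00549). In this gene old replicate 1 was the lowest old library and old replicate 3 the highest. The GTPase genes Tgtp1 (chr11:48985327-48994172) and Tgtp2 (chr11:49057194-49064206) are close copies, so their separate counts are uncertain. Tgtp1 had 58.2, 124 and 127 CPM in old and 43.6, 46.4 and 48.6 CPM in young libraries (1.14 ± 0.25, adjusted p = 0.0356). Tgtp2 had 69.4, 89.2 and 88.3 CPM in old and 34.3, 39.1 and 39.4 CPM in young libraries (1.12 ± 0.20, adjusted p = 0.00736).

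The number of interferon-stimulated genes called depended on single libraries. It was 0 without old replicate 3, 2 without old replicate 2, 1 without young replicate 1 and 11 without old replicate 1, where the full set of libraries gave 4. Iigp1 lost the call without old replicate 3 (adjusted p 0.0605), Tgtp1 without old replicates 2 or 3 or young replicates 1, 2 or 3 (adjusted p up to 0.288) and Tgtp2 without old replicate 3 or young replicate 1 (adjusted p up to 0.0575). The nearest members that did not pass were Igtp, another GTPase (log2 1.06 ± 0.25, adjusted p = 0.0565), and Oasl2, of the oligoadenylate synthetase family (1.04 ± 0.27, adjusted p = 0.0917). The summed level of the list was 1985, 2783 and 3328 CPM in old and 1751, 1717 and 1854 CPM in young libraries, with old replicate 1 next to the young ones. Class I presentation genes, which show peptides from inside the cell to CD8 T cells, had 23 tested members, of which 1 rose, 0 fell and 22 had a log2 change above 0, with a median of 0.287. Of the 23, 3 passed the filter on low counts through the old libraries alone, which favoured a change above 0 in them. The called member was H2-Q7, a non-classical class I gene (chr17:35439155-35443773), with 100.4, 146 and 161 CPM in old and 44.7, 54.3 and 45.3 CPM in young libraries (log2 1.48 ± 0.20, adjusted p = 0.000607). H2-Q7 resembles its neighbour H2-Q6, and reads may have been shared between them.

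The stretches around the interferon-stimulated response element of Tgtp1 and Tgtp2 are shown, from RefSeq on GRCm38.p6, since this element is the known site of interferon-activated factors. Capitals mark the element, searched on both strands as GAAANNGAAA.
Tgtp1 (chr11:48992277-48992356, minus strand): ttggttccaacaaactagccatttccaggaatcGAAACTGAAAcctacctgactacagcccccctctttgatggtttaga
Tgtp2 (chr11:49064236-49064315, minus strand): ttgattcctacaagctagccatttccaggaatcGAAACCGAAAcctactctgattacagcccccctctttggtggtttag
The element began 77 bases before the start of Tgtp1 and 70 bases before that of Tgtp2. Of the promoters of tested interferon-stimulated genes 17 of 31 held it (54.8%), against 3.01% of the promoters of all genes tested. Among promoters of all risen genes the share was 4.62% (3 of 65), and among those of fallen genes 15.4% (4 of 26). The AP-1 motif TGACTCA, 1 of several motifs searched, was held by 13.8% of the promoters of risen genes (9 of 65) and by 3.75% of all. The 65 promoters belong to 54 genes, so they are not independent and the shares are description only. Of the 95 called genes 72 had a promoter entry.

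**Figure D2:**
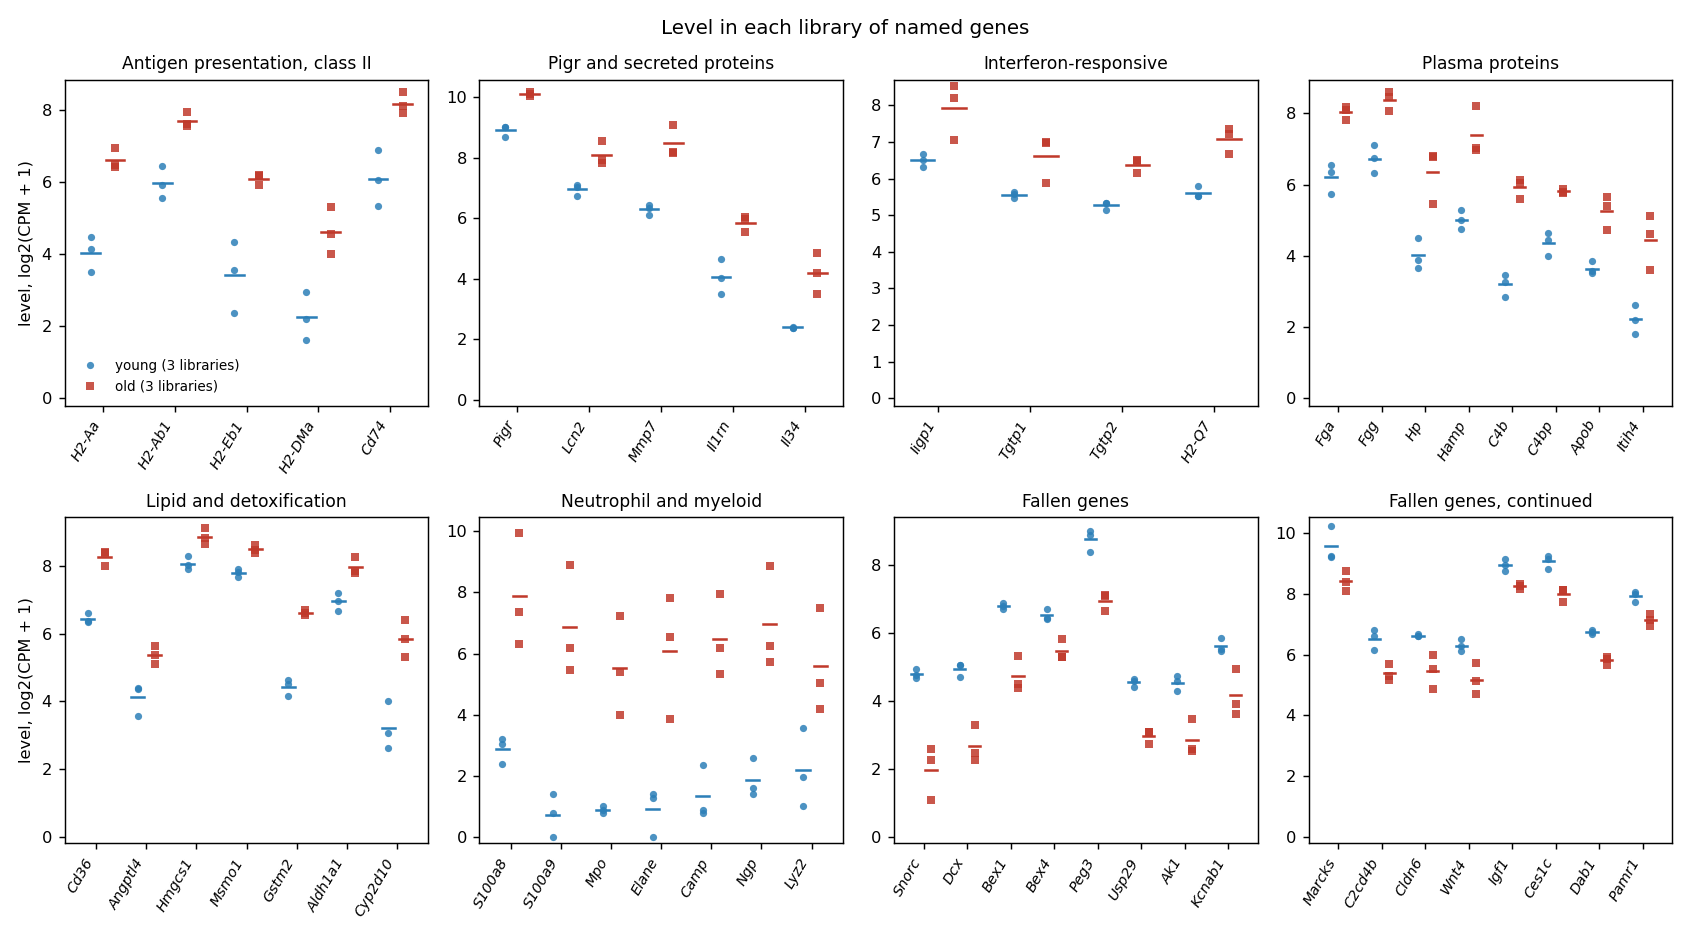
Each symbol is 1 library, with its level as log2(CPM + 1) on the y axis, blue circles young (3 libraries) and red squares old (3 libraries), and bars are group means. Panels hold named genes by role, and in every panel the red and blue symbols of a gene do not overlap; the spread among old libraries is widest in the neutrophil and myeloid panel.

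Several genes of plasma proteins, best known from hepatocytes, also rose. Fga, the alpha chain of fibrinogen (chr3:83026076-83033627), had 221, 289.9 and 273 CPM in old and 80.0, 52.1 and 92.3 CPM in young libraries (log2 1.81 ± 0.20, adjusted p = 7.91e-05). Fgg, its gamma chain (chr3:83007724-83015049), had 264, 352 and 387 CPM in old and 106, 79.7 and 136 CPM in young libraries (1.64 ± 0.20, adjusted p = 0.000195). Both were separated by age, while Fgb, the beta chain, had 22.5, 44.6 and 38.0 CPM in old and 8.31, 10.9 and 24.3 CPM in young libraries, which overlapped (1.23 ± 0.37, adjusted p = 0.195). Hp, haptoglobin, which binds free haemoglobin (chr8:109575128-109579172), had 43.2, 108 and 111 CPM in old and 21.8, 13.8 and 11.7 CPM in young libraries (2.47 ± 0.34, adjusted p = 0.000670). Hamp, hepcidin, the hormone that limits iron export (chr7:30942368-30944032), had 292, 125 and 129.7 CPM in old and 26.0, 38.4 and 31.0 CPM in young libraries (2.51 ± 0.30, adjusted p = 0.000166). Old replicate 1 was the highest for Hamp and the lowest for Hp. Apob, the structural protein of lipoproteins (chr12:7977648-8016835), had 25.3, 40.9 and 49.2 CPM in old and 10.4, 10.9 and 13.4 CPM in young libraries (1.71 ± 0.32, adjusted p = 0.0105). Itih4, an acute phase protein (chr14:30886476-30902353), had 23.5, 11.1 and 33.5 CPM in old and 5.20, 3.62 and 2.52 CPM in young libraries (2.60 ± 0.48, adjusted p = 0.00908). Apob lost the call without old replicates 2 or 3 or young replicate 1 (adjusted p up to 0.122), and Itih4 without old replicate 3 or young replicate 3 (adjusted p up to 0.136).

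Complement C4b, a component of the classical and lectin pathways (chr17:34728380-34743882), had 69.4, 47.1 and 64.8 CPM in old and 6.24, 8.69 and 10.1 CPM in young libraries. The groups were far apart, and the log2 fold change was 2.83 ± 0.29 (adjusted p = 4.14e-05). C4bp, a plasma inhibitor that binds C4b (chr1:130634773-130661632), had 54.4, 58.2 and 53.7 CPM in old and 20.8, 23.9 and 15.1 CPM in young libraries (1.46 ± 0.25, adjusted p = 0.00417). Of 12 tested complement genes these 2 rose and 0 fell. Of the 12, 2 passed the filter on low counts through the old libraries alone, C4b among them, and 1 through the young alone. The number of called complement genes is therefore given no weight. C4b has a close copy, C4a, with at most 2 counts in any library, and reads may have been shared between them. Among 11 tested acute phase and antimicrobial genes Lcn2, Pigr and Hp rose, with levels above that of the filter in every young library. Itih4, Lyz2, Camp, S100a8 and S100a9 were called too, but passed the filter through the old libraries alone, so the number of called members is given no weight, and the last 4 are also made by neutrophils or macrophages. The acute phase genes Saa1, Saa2, Orm1 and Orm2 were too low to be tested at either age.

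Markers of hepatocytes are given beside these genes. Of 37 listed hepatocyte markers found, 18 were tested, 4 rose (Fga, Fgg, Apob and Hamp), 0 fell, and the median log2 change was 0.453. Their summed level was 11387 to 12353 CPM in old and 8836 to 10326 CPM in young libraries (ratio of means 1.22, exact permutation p = 0.1, the smallest possible). Alb, albumin, had 4243, 4640.1 and 4802 CPM in old and 3343, 2991 and 3544 CPM in young libraries, which did not overlap (log2 0.47 ± 0.14, adjusted p = 0.192). Ttr, transthyretin, had 2549.9, 2569 and 2816 CPM in old and 3089.5, 2417 and 2862 CPM in young libraries, which overlapped. The next 3 hepatocyte genes had their highest value in young replicate 3. Apoa2, an apolipoprotein, had 2.82, 31.0 and 26.8 CPM in old and 13.5, 48.5 and 124 CPM in young libraries, and Mup3, a urinary protein gene, had 0, 0 and 3.35 CPM in old and 8.31, 5.79 and 78.0 CPM in young libraries. Serpina3k had 0, 0 and 0 CPM in old and 4.16, 8.69 and 21.0 CPM in young libraries, and Cyp2e1, a cytochrome P450 of hepatocytes, had 0.939, 1.24 and 1.12 CPM in old and 0, 0 and 0 CPM in young libraries. The part of hepatocyte RNA in the plasma protein results was not tested.

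Further plasma protein genes among the 95 are named after their values were seen. Serpina1c, an elastase inhibitor of a family of close copies, had 514, 759 and 856 CPM in old and 179, 265 and 277 CPM in young libraries. Trf, transferrin, had 2129.5, 1586 and 1496 CPM against 856, 883 and 908 CPM, with old replicate 1 the highest. Vtn, vitronectin, had 117, 159.8 and 129.7 CPM against 77.9, 77.5 and 79.7 CPM. None of the 3 overlapped between the ages, and their log2 fold changes were 1.56 ± 0.20, 0.98 ± 0.15 and 0.78 ± 0.17. Kng2, a kininogen, had 24.4, 29.7 and 25.7 CPM in old and 10.4, 5.79 and 5.87 CPM in young libraries. Hamp2, a copy of the hepcidin gene, had 46.9, 31.0 and 33.5 CPM in old and 6.24, 11.6 and 17.6 CPM in young libraries.

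Single genes of lipid handling and detoxification rose as well, while most members of their lists did not pass. Cd36, a fatty acid transporter (chr5:17781690-17888801), had the lowest adjusted p of all genes, with 332, 256 and 342 CPM in old and 81.1, 80.4 and 95.6 CPM in young libraries. The values were even within each age and did not overlap (log2 1.86 ± 0.17, adjusted p = 3.33e-05). Gstm2, a glutathione transferase (chr3:107981702-107986453), had 95.7, 91.7 and 103 CPM in old and 16.6, 23.9 and 21.8 CPM in young libraries (2.19 ± 0.21, adjusted p = 4.04e-05). Aldh1a1, which makes retinoic acid (chr19:20492715-20643465), had 221, 228 and 304 CPM in old and 125, 101 and 146 CPM in young libraries (1.02 ± 0.18, adjusted p = 0.00560). Of 35 tested glutathione and xenobiotic genes these 2 rose and 0 fell, with a median log2 change of 0.132. Aldh1a1 lost the call without old replicate 3 or young replicate 1 (adjusted p up to 0.0605). Cyp2d10, a cytochrome P450 (chr15:82402846-82407195), had 38.5, 55.7 and 82.7 CPM in old and 7.27, 5.07 and 15.1 CPM in young libraries (log2 2.67 ± 0.37, adjusted p = 0.000670). It belongs to a family of close copies, and its log2 change was 3.26 without young replicate 3.

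Of 37 tested fatty acid genes 3 rose and 0 fell, with a median log2 change of 0.245. Beside Cd36 these included Angptl4, an inhibitor of lipoprotein lipase (chr17:33773750-33781830). Angptl4 had 40.4, 33.4 and 48.1 CPM in old and 19.7, 10.9 and 20.1 CPM in young libraries (log2 1.29 ± 0.29, adjusted p = 0.0414). It lost the call without old replicates 1, 2 or 3 or young replicates 1, 2 or 3 (adjusted p up to 0.251) and with DESeq2 (0.0684). Of 29 tested cholesterol synthesis and uptake genes 2 rose, 0 fell and 25 had a log2 change above 0, with a median of 0.478. Of the 29, 2 passed the filter on low counts through the old libraries alone. Hmgcs1, the cytosolic synthase that starts the mevalonate pathway (chr13:119690379-119708260), had 550.0, 449.6 and 399 CPM in old and 258, 309 and 237 CPM in young libraries (0.80 ± 0.16, adjusted p = 0.0176). Msmo1, a sterol oxidase (chr8:64718139-64733792), had 394, 333 and 352 CPM in old and 237, 225 and 205 CPM in young libraries (0.70 ± 0.14, adjusted p = 0.0208). Hmgcs1 lost the call without old replicates 1 or 2 or young replicates 1 or 3 (adjusted p up to 0.125), and Msmo1 without old replicates 1, 2 or 3 or young replicates 1, 2 or 3 (adjusted p up to 0.130).

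Beside Igkc, the highest fold changes were those of neutrophil granule genes, and they were uneven among the old libraries. S100a8 (chr3:90668978-90670035) and S100a9 (chr3:90692632-90695721) form calprotectin. S100a8 had 161, 78.0 and 987 CPM in old and 8.31, 7.24 and 4.19 CPM in young libraries (log2 5.95 ± 0.81, adjusted p = 0.000607). S100a9 had 71.3, 43.4 and 477 CPM in old and 0, 0.724 and 1.68 CPM in young libraries (7.67 ± 1.06, adjusted p = 0.000670). Every old library was above every young one, and old replicate 3 was far above the other old ones. The granule genes Mpo (chr11:87793581-87804413), for myeloperoxidase, and Elane (chr10:79886247-79888215), for neutrophil elastase, had log2 fold changes of 6.15 ± 0.89 and 6.46 ± 0.91. Mpo had 41.3, 14.9 and 149 CPM in old and 1.04, 0.724 and 0.839 CPM in young libraries, and Elane had 91.0, 13.6 and 222 CPM in old and 0, 1.45 and 1.68 CPM in young libraries. Camp (chr9:109847379-109849617), the cathelicidin, had 71.3, 39.6 and 244 CPM in old and 4.16, 0.724 and 0.839 CPM in young libraries (6.02 ± 0.74), and Ngp (chr9:110419747-110423012), another granule protein, had 75.1, 52.0 and 468 CPM in old and 2.08, 5.07 and 1.68 CPM in young libraries (5.95 ± 0.83). In each of these 6 genes old replicate 3 was the highest and old replicate 2 the lowest old library. The young libraries together held 3 counts of S100a9 and 3 of Mpo, so the ratio of summed counts had an exact 95% interval of 77.9 to 1113 for S100a9 and 27.1 to 393 for Mpo, for counting error only.

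These genes passed the filter on low counts only through the old libraries, so the count of them that passed is given no weight. Of 13 listed neutrophil markers, 6 were tested, and the summed level of the 13 was 526.5, 244 and 2606 CPM in old and 15.6, 19.6 and 10.9 CPM in young libraries. Ly6g and Csf3r, which define mature neutrophils, were at or near 0. Ly6g had 0.939, 0 and 0 CPM in old libraries and Csf3r 0.939, 0 and 2.24 CPM, and both were at 0 in young libraries. The untested listed markers were not all so low. Their sum was highest in old replicate 3, where it was well above the levels of Ly6g and Csf3r. Without old replicate 3 the log2 fold changes were 4.19 for S100a8, 5.91 for S100a9, 4.91 for Mpo, 5.45 for Elane, 4.95 for Camp and 4.32 for Ngp, and each kept the call. Without young replicate 3 S100a9 was at 8.49, without young replicate 1 Camp at 7.05, and without young replicate 2 Ngp at 6.64. Lyz2, lysozyme of myeloid cells (chr10:117277331-117282321), had 31.9, 17.3 and 180.0 CPM in old and 1.04, 2.90 and 10.9 CPM in young libraries (log2 3.88 ± 0.77, adjusted p = 0.0172). Arhgdib, a regulator of small GTPases in blood cells (chr6:136923655-136941899), had 12.2, 9.91 and 48.1 CPM in old and 1.04, 0.724 and 3.35 CPM in young libraries (3.69 ± 0.71, adjusted p = 0.0145). Lyz2 lost the call without old replicate 3 or young replicates 1 or 2 (adjusted p up to 0.181) and with DESeq2 (0.157), at 2.28 without old replicate 3 and 5.09 without young replicate 3. Arhgdib lost it without old replicate 3 or young replicates 1 or 2 (adjusted p up to 0.196), at 2.63 without old replicate 3 and 4.58 without young replicate 3. Lyz2 was the 1 called member among 3 tested Kupffer cell and macrophage markers, and passed the filter on low counts through the old libraries alone. Adgre1, which defines macrophages, had 0, 0 and 1.12 CPM in old and 2.08, 0 and 1.68 CPM in young libraries. The part of myeloid RNA in the other results was not tested.

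**Figure D3:**
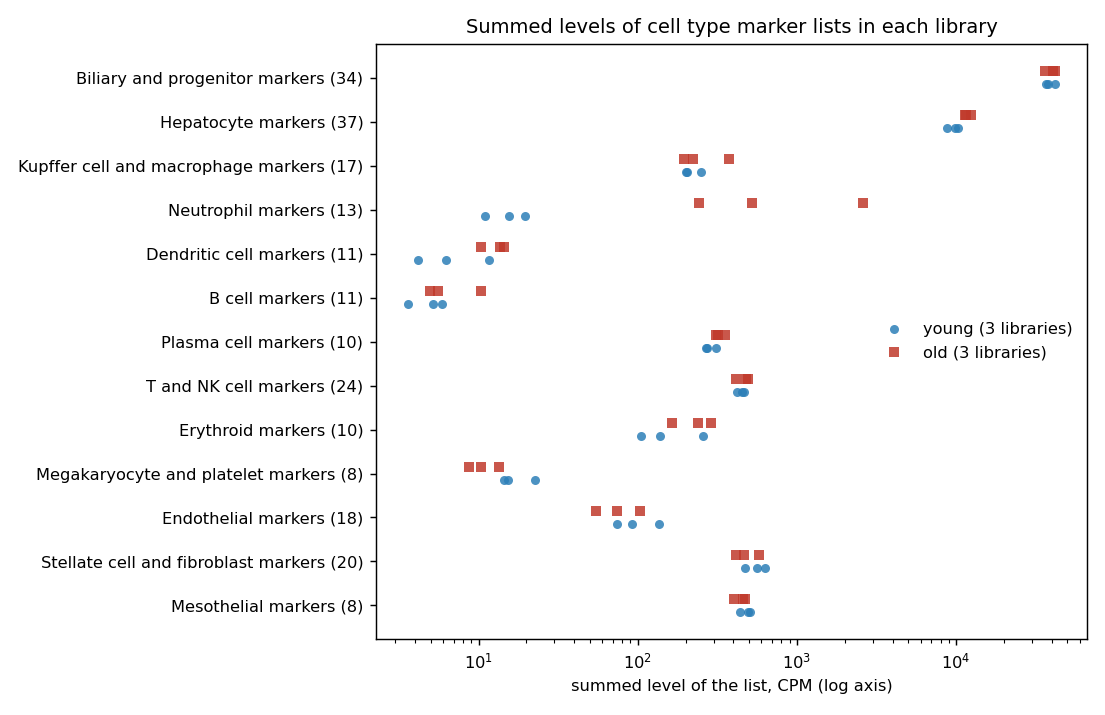
Summed levels of marker lists of 13 cell types in each library, in CPM on a log axis, with the number of genes of each list in brackets, blue circles young and red squares old. The neutrophil sums are separated by age, at 244 to 2606 CPM in old and 10.9 to 19.6 CPM in young libraries, hepatocyte sums are higher in each old library, megakaryocyte and platelet sums are lower in each old library (8.67 to 13.4 CPM against 14.5 to 22.6 CPM), and the other 10 lists overlap between the ages.

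The 3 old libraries differed among themselves. Over the 72 risen genes the highest old library was a median of 1.44 times the lowest. The ratio was under 1.5 for 40 of the 72 genes and above 5 for 10. The 10 were the 6 neutrophil genes with Lyz2, Igkc, Rps12 and the transcription factor gene Mzf1. Old replicate 3 was the highest old library for 41 of the 72 risen genes, replicate 2 for 17 and replicate 1 for 14. No source used here gives the strand setting of the counting, so reads of H2-DMa and Brd2, Arhgdib and Pde6h, Bex1 and Tceal7, and Igf1 and Igf1os, which overlap on opposite strands, cannot be told apart. Rps12, a ribosomal protein gene with copies elsewhere, had 226, 42.1 and 287 CPM in old and 42.6, 47.8 and 47.8 CPM in young libraries, and was the only called gene whose libraries overlapped between the ages.

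Other risen genes are named after their values were seen. They included the sodium channel genes Scn7a (chr2:66673425-66784914) and Scn9a (chr2:66480080-66634962). Scn7a had 67.6, 52.0 and 50.3 CPM in old and 9.35, 14.5 and 12.6 CPM in young libraries (log2 2.19 ± 0.27, adjusted p = 0.000223), and Scn9a had 18.8, 21.1 and 16.8 CPM in old and 7.27, 2.90 and 5.87 CPM in young libraries (1.85 ± 0.41, adjusted p = 0.0356). S100a6, a calcium-binding protein gene, had 133, 124 and 151 CPM in old and 30.1, 31.9 and 47.0 CPM in young libraries. Mt2, a metallothionein that binds zinc and copper, had 53.5, 65.7 and 89.4 CPM in old and 24.9, 23.2 and 21.8 CPM in young libraries. Maf, a transcription factor gene, had 111, 94.1 and 82.7 CPM in old and 52.0, 52.9 and 49.5 CPM in young libraries. The libraries of these genes did not overlap between the ages.

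The fallen gene with the lowest adjusted p was Peg3, an imprinted gene expressed from the paternal copy that encodes a zinc finger protein (chr7:6703892-6730431). Peg3 had 134, 136 and 98.4 CPM in old and 512, 474 and 335 CPM in young libraries. All old libraries were far below all young ones. The level was 3.57-fold lower (log2 -1.84 ± 0.19, adjusted p = 4.04e-05). Usp29, the imprinted neighbour that encodes a ubiquitin protease (chr7:6730578-6967219), had 7.51, 7.43 and 5.59 CPM in old and 23.9, 23.2 and 20.1 CPM in young libraries (-1.69 ± 0.36, adjusted p = 0.0259). The old libraries held 8, 6 and 5 counts of Usp29, which passed the filter on low counts through the young libraries alone. Usp29 lost the call without old replicates 1, 2 or 3 or young replicates 1, 2 or 3 (adjusted p up to 0.180) and with DESeq2 (0.0804). Of 11 tested imprinted and fetal growth genes Peg3 was the 1 that fell and 0 rose, with a median log2 change of -0.151, and Usp29 was not on that list. Other imprinted members included Meg3 (log2 0.05 ± 0.21), Igf2r (0.25 ± 0.22), Grb10 (-0.48 ± 0.25) and Cdkn1c (-0.13 ± 0.29), none of which passed. Peg3 ranked 5 of 23 cell types in young animals and 9 in old, on the scaling over all 170 libraries.

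Peg3 and Usp29 start 164 bases apart and are read in opposite directions, so that their promoter windows share 263 bases. The shared stretch is shown as 1 sequence, since it lies before both fallen genes. It is written on the plus strand in the direction of Usp29, from RefSeq on GRCm38.p6, with CCAAT boxes and a CRE in capitals.
Peg3 and Usp29 (chr7:6730370-6730632, plus strand): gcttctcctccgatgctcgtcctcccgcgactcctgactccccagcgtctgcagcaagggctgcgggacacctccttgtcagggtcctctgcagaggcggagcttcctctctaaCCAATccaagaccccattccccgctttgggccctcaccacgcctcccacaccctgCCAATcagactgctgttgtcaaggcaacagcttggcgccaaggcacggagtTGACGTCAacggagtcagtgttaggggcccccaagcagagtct
The start of Peg3 is at 6730419 on the minus strand and that of Usp29 at 6730583 on the plus strand. The 2 CCAAT boxes began 99 and 44 bases before the start of Usp29, between both starts, and the CRE began 7 bases after the start of Usp29. A CCAAT box was held by 30.8% of the 26 promoters of fallen genes and by 37.2% of those of all genes tested. A CRE was held by 3 of the 26, which is 11.5%, and by 3.20% of all. The CCAAT boxes and the CRE shown lie in both windows and were counted for Peg3 and again for Usp29. The 26 promoters belong to 18 genes, so they are not independent and the shares are description only.

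Other fallen genes are described one by one, and no list was made for them. Dcx, doublecortin, which binds microtubules (chrX:143855842-143933311), had 3.75, 8.67 and 4.47 CPM in old and 32.2, 31.9 and 25.2 CPM in young libraries (log2 -2.42 ± 0.38, adjusted p = 0.00213). Bex1, an adaptor gene of neurotrophin signalling (chrX:136213972-136215513), had 21.6, 19.8 and 39.1 CPM in old and 116, 109 and 102 CPM in young libraries (-2.02 ± 0.23, adjusted p = 0.000153). Bex4, of the same family (chrX:136138996-136140443), had 55.4, 38.4 and 38.0 CPM in old and 85.2, 84.7 and 104 CPM in young libraries (-1.04 ± 0.21, adjusted p = 0.0170). All 3 lie on the X chromosome, and none overlapped between the ages. In young animals liver progenitors ranked 1 of 23 cell types for Dcx, Bex1 and Bex4, and in old animals 3, 4 and 3. Snorc, a membrane proteoglycan gene of cartilage (chr1:87470271-87475482), had 3.75, 4.95 and 1.12 CPM in old and 26.0, 29.7 and 24.3 CPM in young libraries, the lowest log2 fold change of all called genes (-2.99 ± 0.43, adjusted p = 0.000876). Dcx and Snorc passed the filter on low counts through the young libraries alone, which favoured a fall in them. Dab1, the adaptor of reelin signalling (chr4:103619359-104744844), had 60.1, 57.0 and 49.2 CPM in old and 106, 101 and 109.9 CPM in young libraries (-0.93 ± 0.18, adjusted p = 0.0116). Bex4 lost the call without old replicates 2 or 3 or young replicates 1 or 3 (adjusted p up to 0.136), and Dab1 without old replicates 2 or 3 or young replicates 1 or 3 (adjusted p up to 0.0917).

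Of the signalling and junction lists 1 gene each fell. Wnt4, a secreted ligand (chr4:137277489-137299726), had 33.8, 24.8 and 51.4 CPM in old and 67.5, 89.1 and 76.3 CPM in young libraries (log2 -1.08 ± 0.24, adjusted p = 0.0362). It was the 1 called gene of 23 tested in the Wnt pathway, whose median log2 change was 0.091. Igf1, insulin-like growth factor 1 (chr10:87858265-87937042), had 318, 301 and 284 CPM in old and 429, 492 and 557 CPM in young libraries (-0.71 ± 0.14, adjusted p = 0.0204). It was the 1 called gene of 32 tested growth factors and receptors, whose median log2 change was 0.063, and its receptor gene Igf1r had 169, 107 and 117 CPM in old and 147, 139.8 and 93.9 CPM in young libraries. Cldn6, a claudin of embryonic epithelia (chr17:23679249-23682446), had 28.2, 44.6 and 62.6 CPM in old and 95.6, 95.6 and 101 CPM in young libraries (-1.12 ± 0.23, adjusted p = 0.0216), and was the 1 called gene of 38 tested junction genes, whose median was -0.011. In each of these 3 genes all old libraries were below all young ones. Wnt4 lost the call without old replicates 1 or 2 or young replicates 1, 2 or 3 (adjusted p up to 0.183), Igf1 without old replicates 2 or 3 or young replicate 3 (adjusted p up to 0.155) and Cldn6 without old replicates 1 or 2 or young replicates 1 or 3 (adjusted p up to 0.0947).

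Marcks, a substrate of protein kinase C that binds the membrane and actin (chr10:37133375-37138920), had 432, 274 and 329 CPM in old and 598, 1196 and 592 CPM in young libraries, with young replicate 2 apart from the others (log2 -1.20 ± 0.24, adjusted p = 0.0170). Ces1c, a carboxylesterase (chr8:93099015-93131283), had 276, 279.9 and 209 CPM in old and 599, 448 and 564 CPM in young libraries (-1.07 ± 0.16, adjusted p = 0.00142). C2cd4b (chr9:67759437-67760930) had 34.7, 38.4 and 50.3 CPM in old and 70.7, 95.6 and 112 CPM in young libraries (-1.18 ± 0.22, adjusted p = 0.0106). The groups did not overlap for any of them. Kcnab1, a subunit of potassium channels (chr3:65109384-65378223), had 14.1, 29.7 and 11.2 CPM in old and 56.1, 43.5 and 45.3 CPM in young libraries (-1.42 ± 0.31, adjusted p = 0.0337). Ak1, an adenylate kinase (chr2:32621758-32635058), had 4.69, 4.95 and 10.1 CPM in old and 22.9, 25.3 and 18.5 CPM in young libraries (-1.75 ± 0.39, adjusted p = 0.0358). It passed the filter on low counts through the young libraries alone. Pamr1 (chr2:102550012-102643041) had 159, 139 and 121 CPM in old and 255, 209 and 266 CPM in young libraries (-0.80 ± 0.16, adjusted p = 0.0195). Marcks lost the call without old replicates 2 or 3 (adjusted p up to 0.145), C2cd4b without old replicate 2 or young replicate 3 (adjusted p up to 0.0687), Kcnab1 without old replicates 1 or 3 or young replicates 1, 2 or 3 (adjusted p up to 0.214), Ak1 without old replicates 1, 2 or 3 or young replicates 1, 2 or 3 (adjusted p up to 0.168) and with DESeq2 (0.0804), and Pamr1 without old replicates 2 or 3 or young replicates 1 or 3 (adjusted p up to 0.166).

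Other fallen genes are named after their values were seen. Fxyd1, a regulator of the sodium pump, had 683, 655 and 624 CPM in old and 1109.9, 902 and 1198 CPM in young libraries. Llgl2, a gene of epithelial polarity, had 296, 289 and 293 CPM in old and 485, 407 and 450.4 CPM in young libraries. Neither overlapped between the ages.

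Markers of the lineage and the pathways of duct development gave no calls. Of 31 tested biliary and progenitor markers 0 were called, and the median log2 change was -0.050. Their summed level was 36132 to 41998 CPM in old and 36918 to 41722 CPM in young libraries (exact permutation p = 0.9). No gene was called among 14 tested genes of the Notch pathway, which drives bile duct formation, 25 of the Hippo pathway, 31 of the TGF-beta pathway, 23 of bile transport and 28 transcription factors of liver and biliary development. The same held for 20 proliferation genes, 19 cell cycle inhibitors and senescence-associated genes, 31 immediate-early genes, 20 heat-shock genes, 69 nuclear genes of oxidative phosphorylation, 17 clock genes, 33 chromatin regulators, 24 genes of the NF-kB pathway, 6 keratins and 6 mucin and goblet genes. Their median log2 changes ran from -0.177 (heat-shock genes) to 0.112 (bile transport). Of 36 tested cilium and polycystin genes 0 were called, 12 had a log2 change above 0, and the median was -0.135. Of 26 tested genes of the unfolded protein response 0 were called and 23 had a log2 change above 0, with a median of 0.168. Of the 26, 2 passed the filter on low counts through the old libraries alone. Over all genes tested 4918 of 9876 had a log2 change above 0. In these lists an absent call does not show that a gene was unchanged, since a log2 change of 1.42 ± 0.34, that of H2-DMb1, did not pass.

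**Figure D4:**
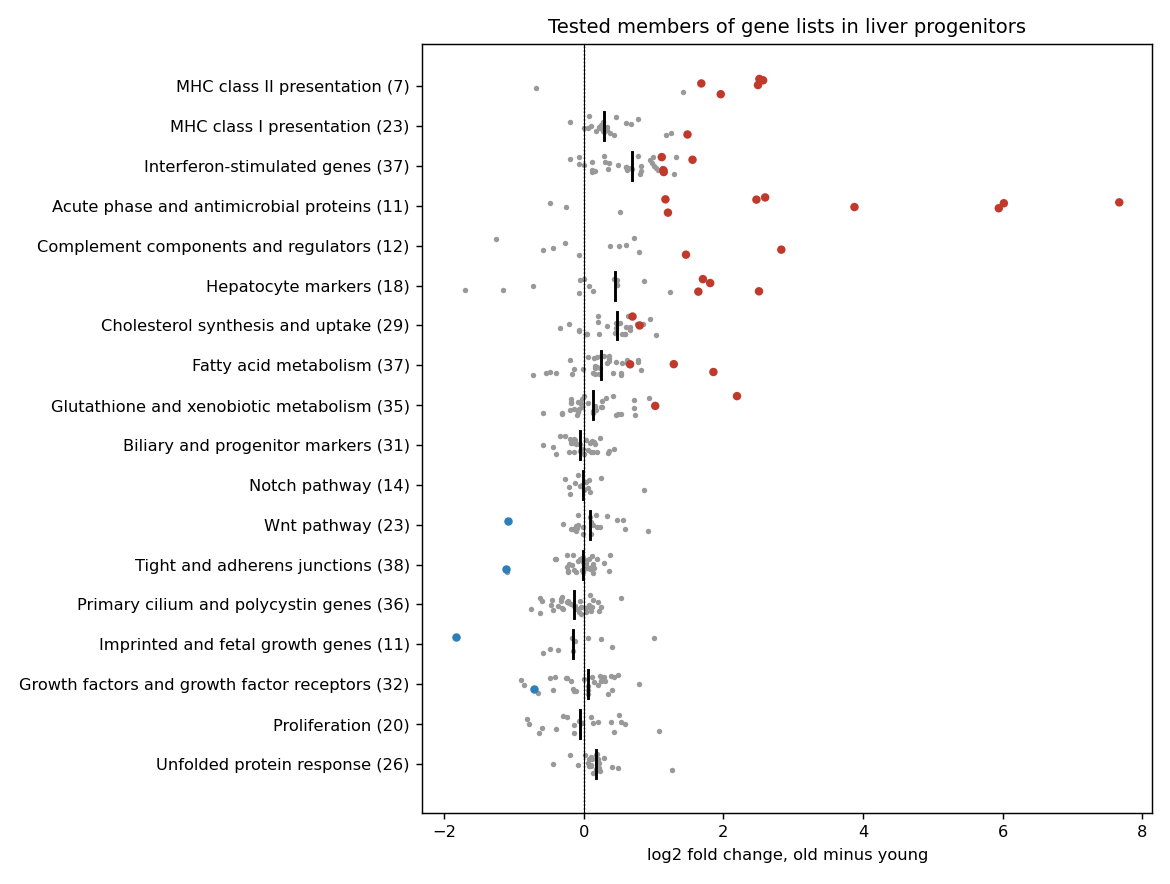
Each point is a tested member of a gene list (number in brackets), with its log2 fold change, old minus young, on the x axis; red and blue points passed the test as higher and lower, grey did not, black bars are list medians, and the dotted line is the median of all genes. No median is drawn where 25% or more of the members passed the filter on low counts through 1 age alone (class II, acute phase and complement), interferon, cholesterol and hepatocyte medians lie between 0.453 and 0.69, and the biliary median lies at -0.050.

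The age change of liver progenitors was set against that of kidney tubular cells, another epithelium (3 young and 4 old libraries), with a test of the difference. Levels here are on a scaling over both cell types, so they differ from those above. Of 13739 genes 113 differed, which is 0.822% of all tested, with 0.539% of all tested greater in liver progenitors and 0.284% lower. Of the 95 genes called in liver progenitors 18 differed, 10 risen genes with a greater change and 8 fallen genes with a lower one. The 95 were called from the same liver libraries, which favoured this number and these directions, so both are given no weight. Gstm2 went from 21.1 ± 3.87 to 97.4 ± 6.35 CPM in liver progenitors and from 334 ± 42.3 to 295 ± 38.6 CPM in kidney cells (SD, log2 difference ± SE 2.37 ± 0.24, adjusted p = 7.18e-05). C3, the central complement component, went from 677 ± 107 to 1024 ± 149.8 CPM in liver progenitors, where it did not pass (adjusted p = 0.0926), and from 62.5 ± 33.4 to 10.3 ± 3.21 CPM in kidney cells (log2 difference 3.20 ± 0.42, adjusted p = 0.000832). In the other direction Marcks went from 807 ± 350.4 to 347 ± 78.9 CPM in liver progenitors and from 24.6 ± 1.04 to 58.7 ± 20.3 CPM in kidney cells (log2 difference -2.47 ± 0.40, adjusted p = 0.00568). Peg3 went from 446 ± 91.6 to 124 ± 20.6 CPM in liver progenitors and from 153 ± 21.6 to 96.6 ± 9.55 CPM in kidney cells (log2 difference -1.19 ± 0.24, adjusted p = 0.0182). The count of 113 fell to 51 without old liver replicate 3, 60 without old liver replicate 2, 62 without young liver replicate 1, 46 without young liver replicate 2, 74 without young liver replicate 3 and 64 without young kidney replicate 1, and was 170 without young kidney replicate 3. The Peg3 difference lost the call when young kidney replicate 1, old liver replicate 3, young liver replicate 1 or young liver replicate 2 was left out (adjusted p up to 0.0685). The class II gene H2-Aa went from 15.0 ± 11.4 to 128 ± 69.6 CPM in kidney cells, and the age changes of the 2 cell types differed by -0.59 ± 0.68 (adjusted p = 0.785), which did not pass. H2-Ab1 went from 28.7 ± 19.2 to 199 ± 95.7 CPM and Cd74 from 36.5 ± 16.9 to 233 ± 106 CPM in kidney cells. The differences for H2-Ab1, Cd74, H2-Eb1 and H2-DMa did not pass (adjusted p = 0.394, 0.607, 0.871 and 0.542). Pigr (14.3 to 41.1 CPM), Lcn2 (7.57 to 27.7 CPM) and Igkc (4.55 to 152 CPM) were also higher in old kidney cells. Their differences did not pass either (adjusted p = 0.556, 0.328 and 0.699).

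Against beta cells of the pancreas (4 young and 4 old libraries) 111 of 12017 genes differed, which is 0.924% of all tested, with 0.691% greater in liver progenitors and 0.233% lower. Levels are again on a scaling of their own. The 111 included 25 of the 95, of which 17 were risen genes with a greater change and 8 fallen genes with a lower one. Here too the liver libraries that gave the 95 calls entered the test, so number and directions are given no weight. Cd36 went from 55.0 ± 5.99 to 199.5 ± 30.5 CPM in liver progenitors and from 5.47 ± 1.16 to 2.77 ± 1.07 CPM in beta cells (SD, log2 difference ± SE 2.58 ± 0.40, adjusted p = 0.00297). Mmp7 went from 49.7 ± 5.23 to 240.1 ± 96.9 CPM in liver progenitors and from 8.16 ± 4.37 to 8.26 ± 3.61 CPM in beta cells (log2 difference 2.41 ± 0.49, adjusted p = 0.0173). Of the 5 risen class II genes, 3 differed. In beta cells H2-Aa went from 2.91 ± 1.73 to 3.41 ± 1.01 CPM (difference 2.63 ± 0.63, adjusted p = 0.0465), and the differences for H2-Ab1 and Cd74 were 2.11 ± 0.48 and 2.14 ± 0.50 (adjusted p = 0.0364 and 0.0427). H2-Eb1 and H2-DMa did not pass, with differences of 2.15 ± 1.04 and 2.71 ± 0.85 (adjusted p = 0.568 and 0.207). Bex1 went from 70.1 ± 3.91 to 17.3 ± 6.96 CPM in liver progenitors and from 57.0 ± 9.19 to 63.3 ± 9.71 CPM in beta cells (log2 difference -2.16 ± 0.31, adjusted p = 0.000936). Peg3, which went from 2462 ± 511 to 2054 ± 295 CPM in beta cells, differed by -1.57 ± 0.32 (adjusted p = 0.0155), and Usp29 by -1.53 ± 0.33 (adjusted p = 0.0275). The naming rule took Gstm2, Peg3 and Pamr1 in both comparisons. The differences from kidney and from beta cells share the 6 liver libraries. The Mmp7 difference lost the call without old beta replicate 2, young beta replicate 1 or young liver replicate 3 (adjusted p up to 0.162). The Peg3 difference lost it without old liver replicate 3 or young liver replicates 1 or 2 (0.0827), and that of Usp29 also without old liver replicates 1 or 2 or old beta replicate 2 (0.115). Class II differences lost the call without most single libraries (adjusted p up to 0.167 for H2-Aa, 0.124 for H2-Ab1 and 0.137 for Cd74). The count of 111 fell to 73 without old beta replicate 1 or 2, 71 without old liver replicate 1, 68 without old liver replicate 2, 59 without old liver replicate 3 or young liver replicate 1, and 57 without young liver replicate 2 or 3.

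**Figure D5:**
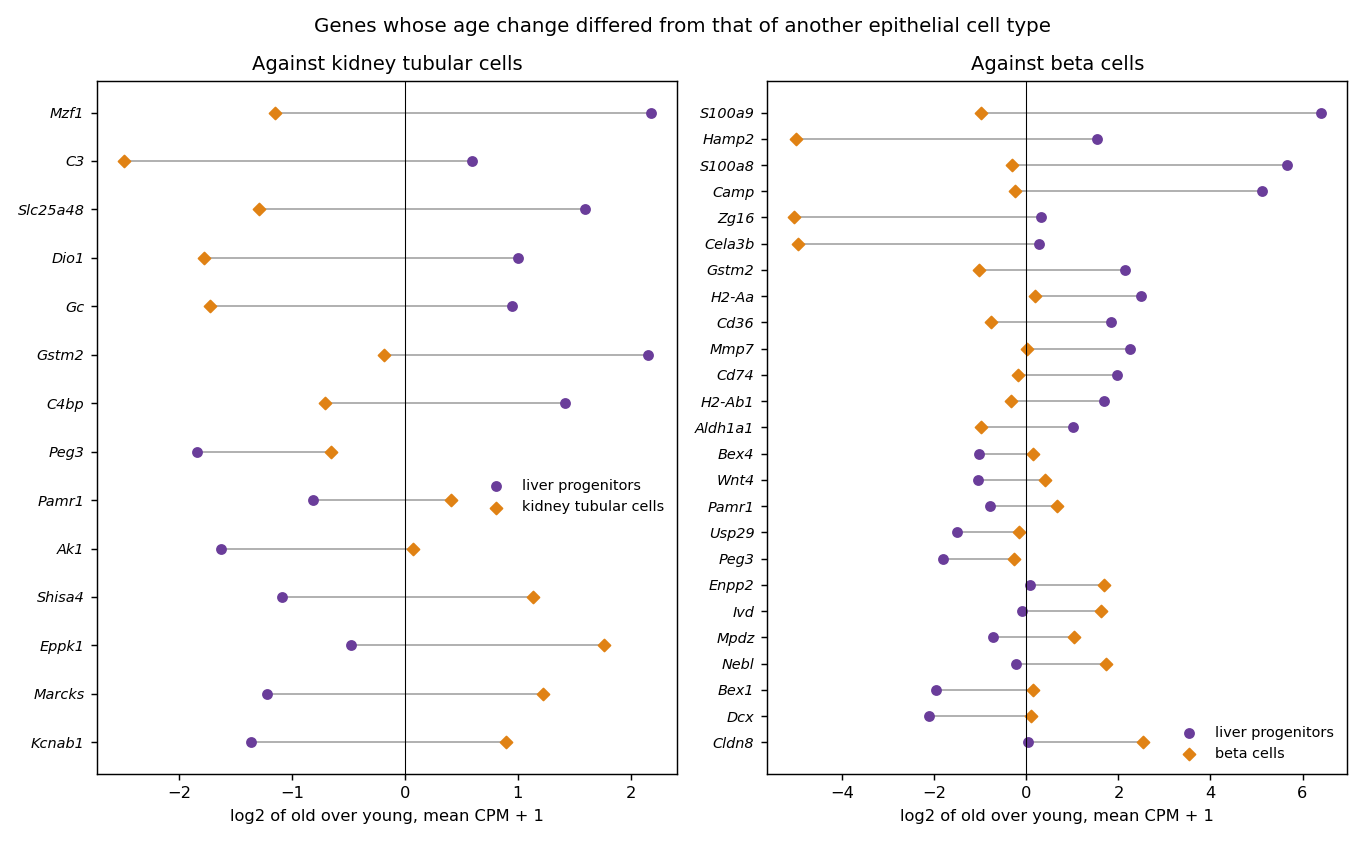
Genes whose age change differed between liver progenitors and kidney tubular cells (left, 14 genes) or beta cells (right, 25 genes), with the log2 ratio of the old to the young mean of CPM + 1 on the x axis, purple circles liver progenitors and orange diamonds the other cell type. For Gstm2, Cd36, H2-Aa, H2-Ab1 and Cd74 the circle lies to the right of the diamond, and for Peg3, Marcks, Bex1 and Dcx to the left.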

How the data were processed

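The values were raw counts per gene, deposited by the authors as 1 table of 55484 genes and 170 libraries. Reads came from the 3′ end of polyadenylated RNA and carried a sample index of 8 bp and a molecular identifier (UMI) of 10 bp, per the labels' protocols. Per the submitters' processing notes, sabre 80faf94, STAR and featureCounts 2.0.1 were used, with builds named GRCm38.p6 and mm10. No source used here says whether UMIs were used to remove duplicates, so counts may include copies of 1 molecule and intervals cover counting error only.

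The 6 liver libraries were tested with edgeR 4.0.16 (R 4.3.3), TMM scaling, filterByExpr (minimum count 10, minimum total 15) and the quasi-likelihood test with Benjamini-Hochberg adjustment over all genes tested, at 0.05. Differences between cell types were contrasts of 4 groups in 1 fit. CPM were computed from the same counts. The steps were checked on simulated counts. Alternatives were RLE scaling, no filter, each library left out, a block for the replicate number, DESeq2 1.42.0 and the spread of all 170 libraries.

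Genes named by fold change passed the test, reached 20 CPM or more in their higher group and did not overlap between the ages. The 15 highest and 15 lowest of them by log2 fold change were named. Up to 6 called members of each list were named without the limits on level and overlap. Of the differences between cell types that passed, the 6 highest and 6 lowest with 20 CPM or more in a liver group were named. Their genes need not have been called in liver progenitors. Differences that passed for genes named in liver progenitors were included too. Sex-linked and unnamed genes, pseudogenes, antisense genes and receptor segments were left out, and results for some genes are not reported here. The comparison, the gene lists and the tests were chosen with earlier results of these data known. Coordinates are from GENCODE M21 (GRCm38), where 53256 gene names had a unique match. All pairs of liver libraries differed by more than counting noise.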

Additional observations from a re-analysis of the deposited data

Results flagged for a closer look

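The age change of 14 named genes differed between liver progenitors and kidney tubular cells, by a test of the difference itself. On the log2 scale the change in liver progenitors was greater by 3.48 for Mzf1, 3.20 for C3, 3.09 for Slc25a48, 2.92 for Dio1, 2.76 for Gc, 2.37 for Gstm2 and 2.36 for C4bp. The difference was -1.19 for Peg3, -1.23 for Pamr1, -1.85 for Ak1, -2.31 for Shisa4, -2.37 for Eppk1, -2.47 for Marcks and -2.86 for Kcnab1. Without old liver replicate 3 the Mzf1 difference was 2.53, and without young liver replicate 2 the Shisa4 difference was -1.54, and neither passed. For C3, Dio1, Gc, Shisa4 and Eppk1 the log2 ratio of old to young was larger in size in kidney cells than in liver progenitors, and C3, Dio1, Shisa4 and Eppk1 were not called in liver progenitors. For Marcks the sizes were alike, at -1.22 in liver progenitors and 1.22 in kidney cells.

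The age change of 25 named genes differed from that in beta cells. The difference was 8.82 for S100a9, 7.37 for Hamp2, 6.40 for S100a8, 6.29 for Camp, 5.40 for Zg16, 5.27 for Cela3b, 3.26 for Gstm2, 2.63 for H2-Aa, 2.58 for Cd36, 2.41 for Mmp7, 2.14 for Cd74, 2.11 for H2-Ab1 and 2.10 for Aldh1a1. It was -1.16 for Bex4, -1.50 for Wnt4, -1.50 for Pamr1, -1.53 for Usp29, -1.57 for Peg3, -1.64 for Enpp2, -1.73 for Ivd, -1.85 for Mpdz, -2.06 for Nebl, -2.16 for Bex1, -2.50 for Dcx and -2.62 for Cldn8. Zg16 and Cela3b are genes of the exocrine pancreas, and Zg16 went from 40.6 ± 4.64 to 50.7 ± 5.57 CPM with age in liver progenitors (SD, n = 3) and from 9550 ± 8325 to 285 ± 328 CPM in beta cell libraries (SD, n = 4). For Hamp2, Zg16, Cela3b, Enpp2, Ivd, Mpdz, Nebl and Cldn8 the log2 ratio of old to young was larger in size in beta cells than in liver progenitors, and of these Hamp2 alone was called in liver progenitors. Hamp2 went from 7.59 ± 3.72 to 23.9 ± 5.42 CPM in liver progenitors (SD, n = 3) and from 130 ± 105 to 3.07 ± 1.74 CPM in beta cells (SD, n = 4).

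Single libraries moved 7 of these differences by more than 1.5-fold. Without old liver replicate 3 the difference was 7.07 for S100a9, 4.62 for S100a8 and 5.20 for Camp. It was 9.66 for S100a9 without young liver replicate 3 and 7.32 for Camp without young liver replicate 1. Without young beta replicate 3 it was 6.67 for Hamp2, 4.61 for Zg16, 4.50 for Cela3b and 2.55 for Gstm2. Without old beta replicate 3 it was 6.64 for Zg16 and 7.25 for Cela3b. Hamp2 also moved by more than 1.5-fold without old beta replicate 2. Camp and Cela3b each lost the call in 7 of the 14 fits that left out 1 library.

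In 7 of 64 groups of 4 libraries 1 library lay apart from the other 3, by a limit that chance passes in about 1 in 20 single groups. The groups were 14 genes in old kidney cells and 25 genes in beta cells at each age. Genes of a cell type and age share the same libraries, so the groups are not independent. The number 7 is therefore not set against chance. All 7 were beta cell groups, which made up most of those checked, and C3 in old kidney cells lay just under the limit. Among old beta cells the library apart was the highest at 8.58 CPM for S100a8, 776 CPM for Zg16, 918 CPM for Cela3b and 13.7 CPM for Mmp7, and the lowest at 0.809 CPM for S100a9 and 1.91 CPM for H2-Aa. Among young beta cells it was the highest at 129 CPM for Gstm2.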

How the results depend on the processing

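Each of the 95 calls kept its direction in every alternative that tested it. The count of 95 was 97 with RLE, 84 with DESeq2, 209 without a filter and 29 with the spread of all 170 libraries, and 50 to 96 when 1 library was left out. The 113 differences from kidney cells became 405 without a filter, 266 with DESeq2 and 118 with RLE, and ranged from 46 to 170 when 1 library was left out. The 111 differences from beta cells became 228 without a filter, 150 with DESeq2 and 112 with RLE, and ranged from 57 to 148. The causes were not tested. Of the named genes 28 of 56 in liver progenitors, 7 of 16 against kidney cells and 9 of 25 against beta cells kept the call whichever single library was left out.

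The labels state no pairing by replicate number. Deviations of same-numbered old and young libraries correlated at 0.026, -0.044 and 0.067, and those of differently numbered ones at -0.146 to 0.117. So few libraries cannot exclude a pairing. With the replicate block the counts were 130 in liver progenitors, 45 against kidney cells and 125 against beta cells. At 830091 to 1447013 counts per library, genes near 10 counts rest on few reads, and 3 pools of 5 animals an age limit what could pass.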
